A study of Mus musculus with 20 samples.

Results

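Mobp and Ptprz1 are genes of the oligodendrocyte lineage, the glial cells that make the myelin of the brain. Every row of the 3 deposited lists of edited sites that carries either gene symbol was taken, which gave 86 of the 25978 sites in any list, 24 in Mobp and 62 in Ptprz1. Mobp encodes myelin-associated oligodendrocyte basic protein, a small, positively charged protein of compact central myelin, whose messenger RNA is carried into the processes of mature oligodendrocytes. Ptprz1 encodes a receptor protein tyrosine phosphatase whose extracellular part carries chondroitin sulfate chains. It is made by oligodendrocyte precursors and also by astrocytes and radial glia, and alternative splicing yields a long receptor, a short receptor without most of the middle of the extracellular part, and a secreted form known as phosphacan. It binds the growth factors pleiotrophin and midkine and the adhesion protein contactin-1, and it is known as a brake on the maturation of oligodendrocyte precursors.

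The lists mark N6-methyladenosine (m6A), a methyl group on adenosines of messenger RNA that reader proteins with a YTH domain recognise. The mice carried a tamoxifen-inducible transgene for APOBEC1-YTH, a cytidine deaminase fused to such a YTH domain, which turns cytidines near m6A into uridines that sequencing reads as C-to-U edits. APOBEC1-YTH was measured in 4 libraries each of whole cortex, whole hippocampus and whole cerebellum, and its background control APOBEC1-YTHmut in 3 libraries of cortex, 2 of hippocampus and 3 of cerebellum. All mice of both genotypes received tamoxifen at 20 mg/kg every 24 h for 5 days, and tissue was collected 7 days after the last dose. The labels give neither the age of the mice nor the promoter that drives the transgene, so the share of oligodendrocyte lineage cells that made the editor is not known. Each region has 1 list with 1 editing level per site, read here as the percentage of edited reads. Read depth is unknown, the lists hold no value per library, and none of the differences below has a replicate check or a test. In whole tissue, fewer cells of a type and less RNA per cell cannot be told apart, and either can keep a site from being listed.

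Mobp lies on the plus strand of chromosome 9 from 120149742 to 120181488 (mm10) and has 5 transcripts in the RefSeq table. Its 24 sites fell into 2 blocks. The upstream block held 5 sites within 85 nt, from 120173234 to 120173318, at 8170 to 8254 nt from the annotated 3′ end of the gene. The downstream block held 19 sites within 1914 nt, from 120179335 to 120181248, at 240 to 2153 nt from that end. Distances run along the genome and include introns. RefSeq exons and genome sequence were not used here, so neither block is assigned to an exon or to one of the transcripts, and the bases around the sites are not shown. The median Mobp site lay 1441.5 nt from the 3′ end. Over the 784 genes with 10 or more sites inside their annotated span, the median of the same quantity was 1717 nt.

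Cortex listed 21 Mobp sites, hippocampus 22 and cerebellum 16. The median number of sites per listed gene was 3 in the cortex, 2 in hippocampus and 2 in cerebellum, so Mobp stood above 94.6%, 95.1% and 92.6% of the listed genes in these regions in that order. Its levels, in contrast, lay near the middle of the listed genes. The median Mobp level was 2.97% in the cortex (range over sites 1.13 to 16.6%), 3.02% in hippocampus (1.36 to 15.5%) and 3.89% in cerebellum (1.2 to 18.0%), and 47.9%, 50.5% and 55.4% of listed genes had a lower median in these regions. The SD over Mobp sites was 3.94 percentage points in the cortex, 4.06 in hippocampus and 4.53 in the cerebellum. Each of these exceeded the differences between the regional medians. This SD describes how unlike the sites of the gene are and is no error of a difference between regions. The 3 medians also cover different sets of sites. Over the 15 Mobp sites in all 3 lists, cerebellum had the lowest median (4.23%), beside 4.3% for cortex and 5.25% for hippocampus. The order of the regions by median thus depended on which sites were compared.

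The same 3 Mobp nucleotides led in every region. The site at 120180163 was edited at 16.6% in cortex, 15.5% in hippocampus and 18.0% in cerebellum. At 120180057 the levels were 10.7% in cortex, 12.8% in hippocampus and 9.95% in cerebellum. In the upstream block, 120173267 stood at 10.3% in cortex, 12.9% in hippocampus and 9.69% in cerebellum. Together the 3 sites carried 40.3% of the summed Mobp level in cortex, 40.2% in hippocampus and 45.5% in cerebellum, the sum being 93.2, 102 and 82.8 percentage points in these regions. The strongest site closed a row of 3 listed sites 8 nt apart. Its neighbour at 120180155 had 5.81% in cortex, 5.25% in hippocampus and 7.55% in the cerebellum, and the next at 120180147 had 5.88%, 5.49% and 5.61% in that order. Listed sites of Mobp lay close to each other in general. Another listed site was within 50 nt of 21 of the 24, which is 87.5%, against 59.3% of all sites and 61.3% of those of Ptprz1. The 59.3% includes genes with few sites, and the share over genes with as many sites as Mobp was not computed.

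**Figure D1:**
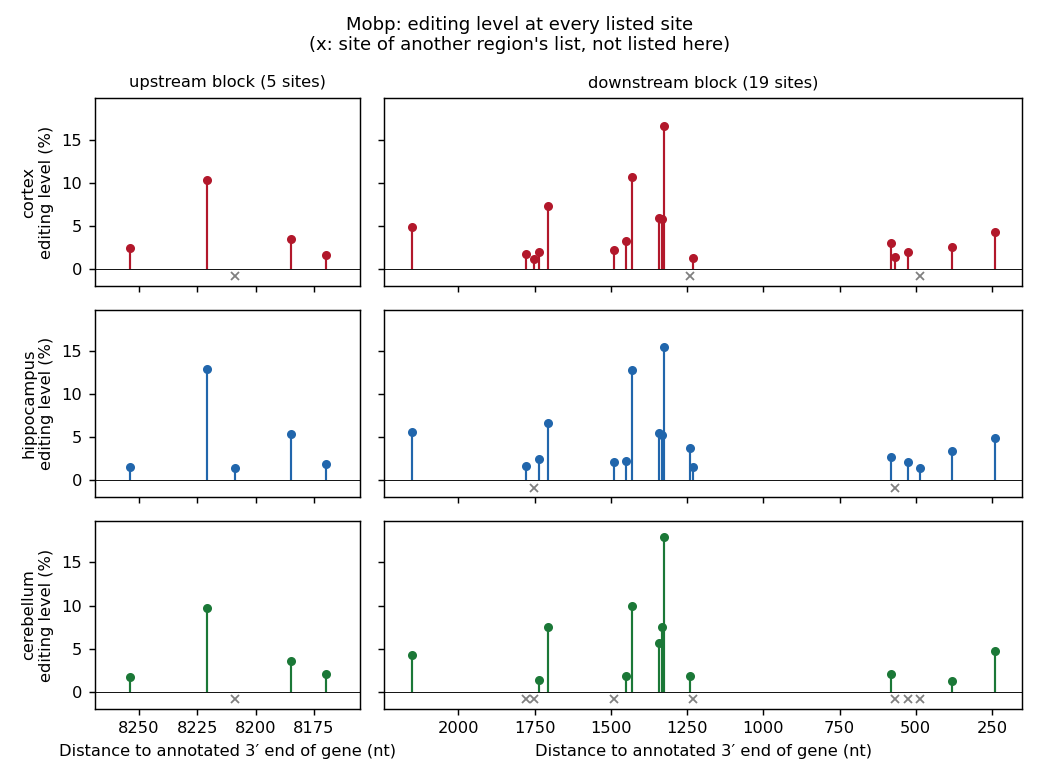
Editing level in percent at each Mobp site against its distance to the annotated 3′ end in nt, with the upstream block left, the downstream block right and cortex, hippocampus and cerebellum from top to bottom. Each stem is 1 listed site and a grey cross marks a site listed only elsewhere. The 3 tallest stems, up to 16.6% in cortex, 15.5% in hippocampus and 18.0% in cerebellum, stand at the same nucleotides in every row.

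Mobp sites were widely shared. Of the 24 sites, 15 were listed at the same nucleotide in all 3 regions, which is 62.5%, against 19.0% of all sites in any list. Among 793 genes with 10 or more sites in any list, the median share was 17.2% and 23 genes had a higher share than Mobp. Cortex and hippocampus shared 19 Mobp sites, which were 90.5% of its cortical and 86.4% of its hippocampal sites, against 52.5% and 69.7% over all genes. Cortex and cerebellum shared 15, which were 71.4% of the cortical and 93.8% of the cerebellar sites, against 37.1% and 58.2% over all genes. Hippocampus and cerebellum shared 16, which were 72.7% of the hippocampal sites and all of the cerebellar ones, against 42.3% and 49.9% over all genes. The 8 Mobp sites without an entry in cerebellum were weak elsewhere, at 2.18% or less in cortex and hippocampus. The 3 without an entry in cortex reached at most 3.74% in another region, and the 2 without an entry in hippocampus at most 1.30%. Since the lowest level in any list was 1%, a site without an entry is not shown to be unedited.

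At shared sites the Mobp levels of the regions lay close together. The 19 sites shared by cortex and hippocampus averaged 4.78% in cortex and 5.05% in hippocampus, and none differed 2-fold or more, against 15.5% of all shared sites of these regions. The median log2 ratio of cortex over hippocampus was -0.12 with an SD over sites of 0.32. The 15 sites shared by cortex and cerebellum averaged 5.59% in cortex and 5.40% in cerebellum, with a median log2 ratio of 0.09 and an SD of 0.44. Of these, 1 site differed 2-fold or more, or 6.67%, against 27.1% of all shared sites. It was 120181106, with 2.56% in cortex and 1.2% in cerebellum. The 16 sites shared by hippocampus and cerebellum averaged 5.77% in hippocampus and 5.17% in cerebellum, with a median log2 ratio of 0.35 and an SD of 0.53. Here 2 sites differed 2-fold or more, or 12.5%, against 26.5% of all shared sites. They were 120181106, with 3.36% in hippocampus and 1.2% in the cerebellum, and 120180249, with 3.74% in hippocampus and 1.77% in cerebellum. In every pair the SD over sites exceeded the size of the median log2 ratio. It describes how the ratio varied among sites and gives no error of the ratio between animals.

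The spread of the Mobp ratios was small among genes with 10 or more shared sites, though not the smallest. Among genes with 10 or more sites in both lists, 9 of 252 had a smaller SD than Mobp for cortex over hippocampus, 5 of 163 for cortex over cerebellum and 14 of 142 for hippocampus over cerebellum. The median SD over these genes was 0.65, 0.74 and 0.73 in the same order. The order of the Mobp sites by level was also much alike between regions, with a Spearman rho of 0.94 over 19 sites for cortex and hippocampus, 0.93 over 15 for cortex and cerebellum and 0.85 over 16 for hippocampus and cerebellum. The points of each correlation are sites of 1 gene, measured in tissue of the same 4 animal numbers, and are not replicates. Across the 15 sites listed in all 3 regions, the ratio of the highest to the lowest regional level had a median of 1.33 and was under 2 at 14 sites, or 93.3%, against 57.0% of the 4942 such sites of all genes. In the upstream block, the 4 sites in all 3 lists had a median log2 ratio of -0.30 for cortex over hippocampus, 0.01 for cortex over cerebellum and 0.15 for hippocampus over cerebellum, and none of them differed 2-fold. In the downstream block the medians were -0.01 over 15 shared sites, 0.10 over 11 and 0.35 over 12 in the same order of pairs.

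**Figure D2:**
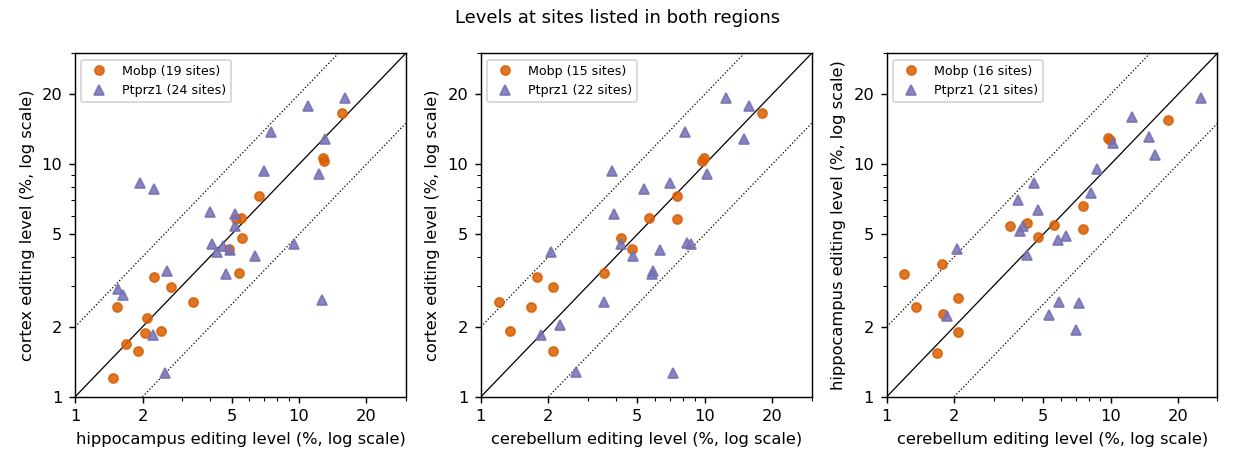
Editing levels in percent on log axes at sites listed in both regions of a pair, for Mobp (circles) and Ptprz1 (triangles); the first-named region is on the vertical axis, the solid line marks equal levels and the dotted lines a 2-fold difference. Of the Mobp sites 0 of 19, 1 of 15 and 2 of 16 lie on or outside the dotted lines from left to right, and of the Ptprz1 sites 5 of 24, 4 of 22 and 5 of 21.

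Ptprz1 lies on the plus strand of chromosome 6 from 22875315 to 23052916 (mm10), a span of 177602 nt with 9 transcripts in the RefSeq table. Its sites were far from the end of the gene. Of the 62 sites, 59 fell into a stretch of 4497 nt, from 22999477 to 23003973, which begins 124162 nt after the annotated start of the gene and ends 48943 nt before its 3′ end. That is 13.1 sites per kb of the stretch, against 9.93 per kb of the downstream block of Mobp and 58.8 per kb of its 85-nt upstream block. The other 3 Ptprz1 sites stood alone, at 23016175, at 23049612 and at 23052542, the last of them 374 nt from the 3′ end. Only 2 Ptprz1 sites, or 3.23%, were within 5 kb of the 3′ end, against 87.0% of all sites inside a gene span. The median distance to the 3′ end was 50803 nt, and 11 of the 784 genes with 10 or more sites had a larger median. Which of the splice forms of Ptprz1 contain the stretch was not analysed here, because no exon positions were used.

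**Figure D3:**
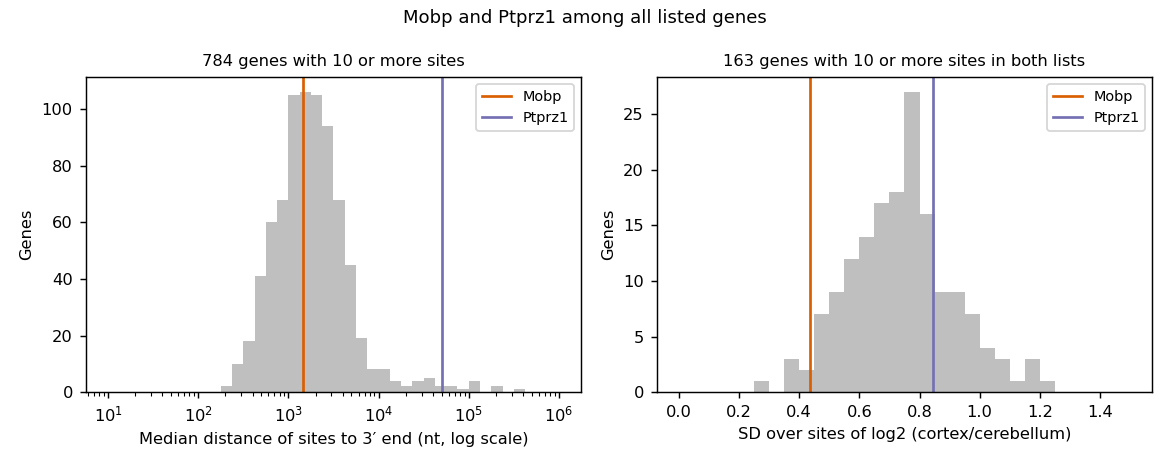
Left, the number of genes (vertical axis) by the median distance of their sites to the annotated 3′ end in nt on a log axis, for 784 genes; right, the number of genes by the SD over sites of the log2 ratio of cortex over cerebellum, for 163 genes. Vertical lines mark Mobp and Ptprz1: Mobp lies at 1441.5 nt and an SD of 0.44, Ptprz1 at 50803 nt and an SD of 0.84.

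Cortex listed 43 Ptprz1 sites, hippocampus 33 and cerebellum 35, which ranked the gene 25th of 3163 listed genes in cortex, 36th of 2547 in hippocampus and 34th of 2228 in cerebellum. The median Ptprz1 level was 3.77% in the cortex (range over sites 1.26 to 19.3%), 4.72% in hippocampus (1.56 to 19.2%) and 4.76% in cerebellum (1.77 to 25.3%). Of the listed genes, 63.5%, 76.6% and 66.8% had a lower median in these regions. The summed level was 218 percentage points in the cortex, 204 in hippocampus and 229 in cerebellum. Sites at 10% or more numbered 4 in cortex, 6 in hippocampus and 6 in cerebellum. The SD over Ptprz1 sites was 4.16 percentage points in the cortex, 4.35 in hippocampus and 5.24 in cerebellum, several times the differences between the medians. As for Mobp, it is no error of a difference between regions, and the medians cover different sets of sites. Over the 18 Ptprz1 sites in all 3 lists, hippocampus had the lowest median (5.035%), beside 5.335% for cortex and 6.1% for cerebellum.

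Some strong Ptprz1 sites were alike in all regions. At 23001430 the level was 12.8% in the cortex, 13.0% in hippocampus and 14.9% in cerebellum. At 23001028 it was 9.09% in the cortex, 12.3% in hippocampus and 10.3% in cerebellum. The strongest cortical site, 23002223, had 19.3% in cortex, 16.0% in hippocampus and 12.4% in cerebellum. In the same stretch, 23002878 had 17.7% in cortex, 11.0% in hippocampus and 15.7% in the cerebellum, and 23001582 had 13.8% in cortex, 7.50% in hippocampus and 8.18% in cerebellum. These 5 sites were within 2-fold in each pair of regions. As in Mobp, a strong site could close a row of weaker ones: 23002878 lay 7 nt after 23002871, with 4.44% in cortex and 4.60% in hippocampus, and that lay 6 nt after 23002865, with 3.49% in cortex, 2.56% in hippocampus and 5.88% in cerebellum.

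The strongest Ptprz1 site of hippocampus was also that of cerebellum and was absent from the cortical list. It was the last site of the stretch, 23003973, with 19.2% in hippocampus and 25.3% in cerebellum. Upstream of it, 23003898 had 18.0% in the cerebellum, and 23003938, between these positions, had 1.96% there; neither was listed in another region. In the last 500-nt bin of the stretch, the 3 cortical sites averaged 3.46% with a highest level of 4.55%, the 3 hippocampal ones averaged 10.8% and the 4 cerebellar ones 13.5%. At the other end, the first 500-nt bin held 5 cortical sites with a mean of 4.35%, 3 hippocampal sites with a mean of 2.64% and 1 cerebellar site at 5.33%. The second bin held 1 site in cortex at 1.28%, none in hippocampus and 4 in cerebellum with a mean of 3.71%. The fifth bin, from 23001477 to 23001976, had 7 cortical, 6 hippocampal and 5 cerebellar sites at means of 6.18%, 4.81% and 6.24%, and 5 of its 8 sites were in all 3 lists. The isolated site at 23016175 was listed in every region, with 4.21% in cortex, 4.32% in hippocampus and 2.06% in cerebellum. The isolated sites at 23049612 and 23052542 were in the cerebellar list alone, at 1.77% and 2.56%.

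**Figure D4:**
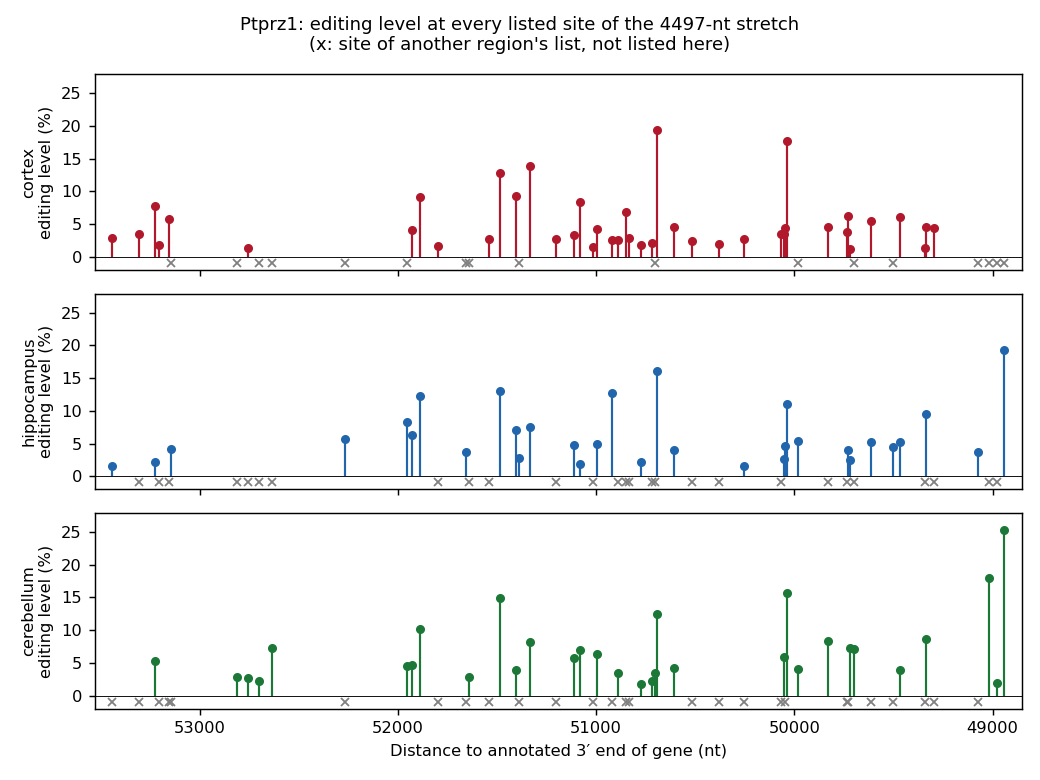
Editing level in percent at the 59 sites of the Ptprz1 stretch against their distance to the annotated 3′ end in nt, with cortex, hippocampus and cerebellum from top to bottom; stems are listed sites and grey crosses are sites listed only elsewhere. The stem at the right edge reaches 19.2% in hippocampus and 25.3% in the cerebellum and is missing in cortex, where 23002223 at 19.3% is the tallest.

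Ptprz1 sites were shared less widely than those of Mobp. Of its 62 sites, 18 were in all 3 lists, which is 29.0%, 13 were in 2 lists, or 21.0%, and 31 in 1, or 50%. Over all sites these shares were 19.0%, 26.4% and 54.5%. Among the 793 genes with 10 or more sites, the median share in all 3 was 17.2%, and 236 genes had a higher share than Ptprz1. Cortex alone listed 15 Ptprz1 sites, hippocampus alone 6 and cerebellum alone 10, which were 34.9%, 18.2% and 28.6% of the Ptprz1 sites of these regions, beside 38.1%, 24.8% and 35.3% over all sites. Cortex and hippocampus shared 24, which were 55.8% of the cortical and 72.7% of the hippocampal Ptprz1 sites, near the 52.5% and 69.7% over all genes. Cortex and cerebellum shared 22, which were 51.2% of the cortical and 62.9% of the cerebellar sites, beside 37.1% and 58.2%. Hippocampus and cerebellum shared 21, which were 63.6% of the hippocampal and 60% of the cerebellar sites, beside 42.3% and 49.9%. Unlike those of Mobp, unlisted sites of Ptprz1 were not all weak elsewhere. Of the 19 without an entry in cortex, 7 reached 5% or more in another region, as did 6 of the 29 without an entry in hippocampus and 6 of the 27 without an entry in cerebellum. Such counts were not made over all genes, so these are not shown to be particular to Ptprz1. Levels of 5% or more made up 23.6% of the whole cortical list, 23.3% of the hippocampal one and 30.4% of the cerebellar one. The site at 23001997 had 2.60% in cortex and 12.7% in hippocampus and no entry in cerebellum. With a 50-nt window in place of the same nucleotide, 33 of the 43 cortical sites had a hippocampal partner and 32 a cerebellar one. Of the 33 hippocampal sites, 27 had a cerebellar partner. The same shares over all sites were not computed. Where sites lie this close together, a partner within 50 nt does not show that the regions agree.

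At shared sites, Ptprz1 levels differed between regions in both directions. The 24 sites shared by cortex and hippocampus averaged 6.68% in cortex and 6.13% in hippocampus, with a median log2 ratio of 0.11 and an SD over sites of 0.91. Of these, 5 differed 2-fold or more, or 20.8%, beside the 15.5% of all shared sites. Higher in cortex were 23001833, with 8.33% in cortex and 1.94% in hippocampus, and 22999691, with 7.83% in cortex and 2.24% in hippocampus. Lower in cortex were 23001997, given above, 23003579, with 4.55% in cortex and 9.52% in hippocampus, and 23003198, with 1.26% in cortex and 2.53% in hippocampus. The 22 sites shared by cortex and cerebellum averaged 6.66% in cortex and 6.60% in cerebellum, with a median log2 ratio of -0.16 and an SD of 0.84, and 4 differed 2-fold or more, or 18.2%, beside 27.1%. The site at 23001512 had 9.35% in cortex and 3.85% in the cerebellum, and 23003198 had 1.26% in cortex and 7.23% in cerebellum. The 21 sites shared by hippocampus and cerebellum averaged 7.16% in hippocampus and 7.73% in cerebellum, with a median log2 ratio of -0.06 and an SD of 0.79, and 5 differed 2-fold or more, or 23.8%, beside 26.5%. Shares this near those of all sites are no result about Ptprz1. The SD of the Ptprz1 ratios exceeded that of 230 of 252 genes for cortex over hippocampus, 125 of 163 for cortex over cerebellum and 92 of 142 for hippocampus over cerebellum. Its Spearman rho over sites was 0.55, 0.65 and 0.60 for these pairs, with the same reservations as for Mobp.

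Other genes of the lineage were taken from lists of marker genes. Of the 35 genes beside Mobp on the list of myelin and mature oligodendrocyte genes, 12 had a site in any region, of which 10 were listed in cortex, 11 in hippocampus, 10 in the cerebellum and 9 in all 3. Over all 3731 genes with a site, 84.8% were listed in cortex, 68.3% in hippocampus, 59.7% in the cerebellum and 43.1% in all 3. The share of all annotated genes that have a site was not computed. The 12 of 35 therefore has no background, and neither have such counts of the other gene lists. None of the 12 matched Mobp in number of sites. Mbp, which encodes myelin basic protein, a main structural protein of central myelin, had 1 site in each list, at 1.82% in cortex, 2.14% in hippocampus and 1.40% in cerebellum. Mog, which encodes a protein of the outer myelin surface, had 3 cortical, 2 hippocampal and 1 cerebellar site. Nfasc, which encodes the adhesion protein neurofascin of glia and neurons, had 8 sites in the cortex, 8 in hippocampus and 9 in cerebellum. Mal, which encodes a membrane protein of myelin, had 6, 6 and 7, and Omg, which encodes oligodendrocyte myelin glycoprotein, had 6, 4 and 3. Enpp2, which encodes the lysophospholipase autotaxin, also abundant in the choroid plexus, had 2 sites in the cortex, 1 in hippocampus and 11 in cerebellum. The 16 sites of these other genes shared by cortex and hippocampus had a median log2 ratio of -0.19, the 19 shared by cortex and cerebellum -0.06 and the 17 shared by hippocampus and cerebellum 0.16, and 12 of their 56 sites, or 21.4%, were in all 3 lists, near the 19.0% of all sites.

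Of the 25 genes beside Ptprz1 on the list of oligodendrocyte precursor genes, 6 had a site in any region, 6 of them in cortex, 4 in hippocampus and 3 in cerebellum, with 2 in all 3. Over all genes with a site these shares were 84.8%, 68.3%, 59.7% and 43.1%, and 6 genes are too few to set against them. Tnr, which encodes the matrix protein tenascin-R, had 10 sites in the cortex, 5 in hippocampus and none in the cerebellum, and Ncan, which encodes the proteoglycan neurocan, 7, 4 and none. The transcription factor gene Olig1 had 2, 3 and 4 sites and the AMPA receptor auxiliary subunit gene Cacng4 had 4, 1 and 3. Lhfpl3 had 1 site in the cortex, none in hippocampus and 2 in cerebellum. The defining precursor genes Pdgfra and Cspg4 and the lineage factor genes Olig2 and Sox10 were among the 19 of 25 without a site. With 23 of the 35 myelin genes also without a site, the lists describe the lineage through the smaller part of these genes. Astrocytes also make Ptprz1. Of 20 astrocyte genes 16 had a site, of which 15 were listed in cortex, 16 in hippocampus and 16 in cerebellum. Over all genes with a site, 84.8%, 68.3% and 59.7% were listed in these regions. The glutamate transporter gene Slc1a2 had 53, 57 and 62 sites in these regions and the neurotrophin receptor gene Ntrk2 had 61, 44 and 21. From which cells the Ptprz1 sites came was not tested.

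**Figure D5:**
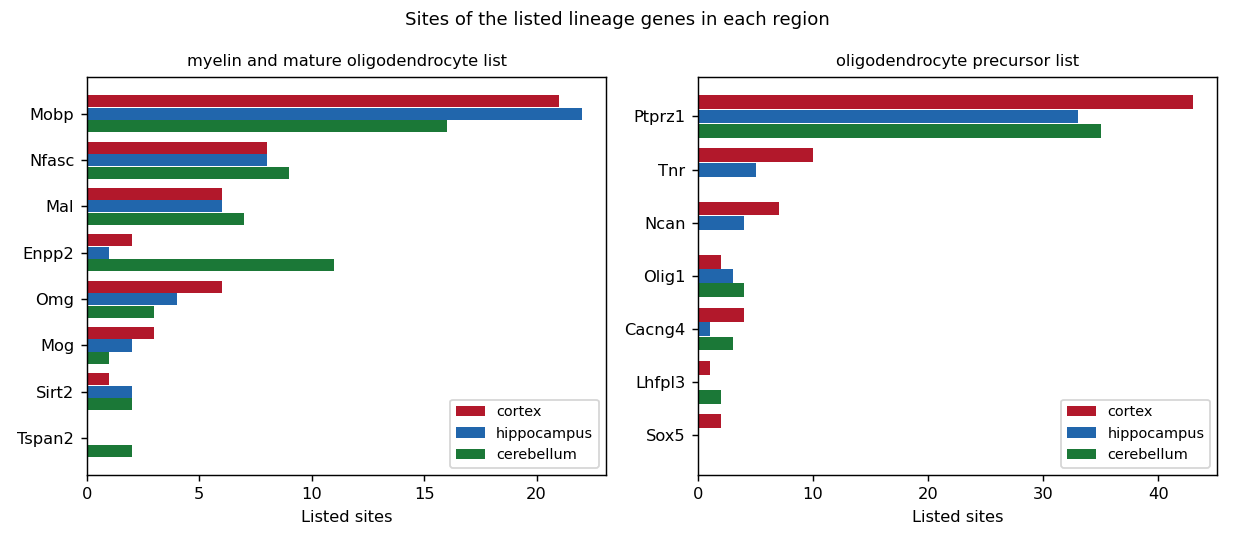
Number of listed sites (horizontal axis) in cortex, hippocampus and cerebellum for each gene of the myelin and mature oligodendrocyte list (left) and of the oligodendrocyte precursor list (right) with more than 1 site in a region. Mobp with 21, 22 and 16 sites and Ptprz1 with 43, 33 and 35 lead their lists in every region.

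By number of sites, the genes most like Mobp were Eid1 with 19 cortical, 22 hippocampal and 16 cerebellar sites, Syt1 with 23, 24 and 14, Trim2 with 21, 25 and 14, Tafa5 with 23, 21 and 13 and Fkbp1a with 17, 20 and 16. The measure was the Euclidean distance over log2 of sites plus 1 in the 3 regions, from 0.14 for Eid1 to 0.32 for Fkbp1a. Of the sites of Eid1 72.7% were in all 3 lists, of Fkbp1a 75%, of Syt1 53.8%, of Tafa5 44.4% and of Trim2 25.8%, so genes with numbers of sites like those of Mobp lay on either side of its 62.5%. For cortex over cerebellum, the SD of the log2 ratios over sites was 0.36 for Eid1, against 0.44 for Mobp. It was 0.56 for Tafa5, 0.60 for Fkbp1a and 0.78 for Syt1, with no value for Trim2. Most like Ptprz1 by the same measure were Abat with 37, 33 and 34 sites, Hspa12a with 41, 38 and 37, Sel1l with 37, 28 and 32, Synj1 with 43, 39 and 29 and 2900097C17Rik with 35, 36 and 31. Their shares of sites in all 3 lists, from 43.5% for Sel1l to 56.8% for 2900097C17Rik, were all above the 29.0% of Ptprz1. The 4 with an annotated span had their median site at 1514.5 to 2876 nt from the 3′ end, against 50803 nt for Ptprz1.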

How the data were processed

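Bulk poly(A) RNA-seq libraries were made from 900 ng of total RNA each, per the labels' protocols, and STAR 2.7.5 and mm10 are named in the submitters' processing notes. The authors deposited 1 list per region, whose level is a fraction from 0 to 1 without header, printed here as percent and read as the share of edited reads in the APOBEC1-YTH libraries combined. APOBEC1-YTHmut libraries served as background when sites were called, per the series design; no value of theirs is in the lists. The sources used here do not name the site caller, its thresholds, a depth minimum or the way of pooling. No list repeats a position. Positions are 1-based. In the 62 listed sites that fall into RefSeq start-of-gene windows (GRCm38.p6, the assembly of mm10), 62 had C at the position and 62 had A 1 base before, preceded by G in 36 and A in 26. None of these is a Mobp or Ptprz1 site.

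A site was shared when chromosome, position and strand were identical. Blocks were separated by gaps over 1000 nt. Gene spans came from the RefSeq table. Because each list is pooled, no test, SD between animals or interval could be computed, and genes were ranked only as a description. Members and gene lists were chosen with earlier results of these data known. The rule for named genes was Mobp, Ptprz1, the 5 genes nearest to each by number of sites, and up to 6 members of a list with the most sites. Mbp, Ptn, Mdk and the precursor genes without a site were named outside this rule, with their values known. In addition, 1 gene of the myelin list that is counted there is not reported by name here. Alternatives were level minimums, merging of sites, sharing windows, scaling, means for medians and binned positions. Calculations ran in Python 3.11.15 with scipy 1.17.1, pandas 2.3.3 and numpy 2.4.6, drawings in matplotlib 3.10.9, and the functions were tested on simulated lists.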

Additional observations from a re-analysis of the deposited data

How the results depend on the processing

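Of 74 alternative values, 56 stayed within 1.5 times (numbers of sites) or within the SD over sites (levels, log2 ratios, distances) of the reported ones, and 18 did not. All 18 came from level minimums, which by construction remove sites. The SD over sites is wide, so staying within it does not show that a value is stable. For example, the median Mobp level in hippocampus was 3.02% as deposited and 5.25% over sites in all 3 lists, within the SD of 4.06. No site of either gene exceeded 25.3%, so keeping only sites under 35% could not change a log2 ratio. At 5% or more, Mobp kept 6 sites in the cortex, 8 in hippocampus and 6 in the cerebellum, and Ptprz1 13, 15 and 17. At 10% or more these were 3, 3 and 1 for Mobp and 4, 6 and 6 for Ptprz1. Sites at 5% or more in both regions numbered 6 for Mobp in each pair, and for Ptprz1 8 in cortex and hippocampus, 7 in cortex and cerebellum and 7 in hippocampus and cerebellum. Of the 24 alternative log2 ratios, 1 changed sign: that of Mobp for cortex over hippocampus was 0.05 with levels of at least 2% in both lists, against -0.12 as deposited, -0.14 scaled to all shared sites and -0.06 as a mean, all inside the SD over sites of 0.32. No paired analysis was possible because each region's list pools its libraries, so the 4 animal numbers shared by the regions cannot enter a fit, and no library could be left out. Unknown depth limits every level and every absence from a list.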

Other observations

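The genes that PTPRZ1 is known to bind or act on were listed in part. Of 20 ligand, partner and substrate genes, 13 had a site, of which 12 were listed in cortex, 11 in hippocampus and 10 in cerebellum. Over all genes with a site, 84.8%, 68.3% and 59.7% were listed in these regions. Cntn1, which encodes contactin-1, had 34 cortical, 29 hippocampal and 25 cerebellar sites. Nrcam, which encodes another adhesion molecule, had 24, 18 and 9 sites. Ptn, which encodes the ligand pleiotrophin, had 2 sites in the cortex, none in hippocampus and 1 in the cerebellum, and Mdk, which encodes midkine, had none. Over the whole list, the 55 sites shared by cortex and cerebellum had a median log2 ratio of 0.18, against -0.06 over all shared sites, and 18 of them, or 32.7%, differed 2-fold or more, near the 27.1% of all shared sites.

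Of 19 other receptor protein tyrosine phosphatase genes, 6 were listed in any region, a count that has no background share here. Ptprr had 11 sites, all in cerebellum, with a highest level of 28.9%. Ptprd had 5 sites in the cortex, 1 in hippocampus and 1 in cerebellum. Ptpro had 3 sites in cortex and 3 in hippocampus, up to 51.4% and 46.7%.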
